A study of Homo sapiens with 6 samples.

Results

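The enzymes described here are the aminotransferases and dehydrogenases that move reducing power and carbon between the cytosol and the mitochondria. They were taken as the rows of the count table whose official symbol is GOT1, GOT2, MDH1, MDH2, ME1, ME2, ME3, IDH1 or IDH2, which gave 9 of the 19240 genes listed. Of these, 4 encode the cytosolic and 5 the mitochondrial enzymes, and all 9 passed the filter on low counts. The cells were A549, an established line grown from a human lung carcinoma, kept for 48 h either in 25 mM glucose or with no glucose, with 3 libraries in each group. The labels name no other treatment or genetic change. They do not say that replicates are separate cultures, so a p-value reflects the spread among these libraries alone, and that spread may be technical. Libraries from cells without glucose are called glucose-free below. The series is titled after PCK2, a mitochondrial enzyme that draws on the same oxaloacetate pool, and after growth of tumor cells that does not depend on glucose.

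The malate-aspartate shuttle carries the reducing power of cytosolic NADH into mitochondria. In the cytosol GOT1 makes oxaloacetate from aspartate and MDH1 reduces it to malate with NADH. Malate enters through a carrier, MDH2 oxidizes it back to oxaloacetate, and GOT2 returns that as aspartate, which leaves through a second carrier. Malic enzymes (ME1 in the cytosol, ME2 and ME3 in mitochondria) turn malate into pyruvate, and isocitrate dehydrogenases (IDH1 in the cytosol and peroxisomes, IDH2 in mitochondria) interconvert isocitrate and 2-oxoglutarate. ME1, ME3, IDH1 and IDH2 work with NADP and can thereby supply NADPH for biosynthesis and for antioxidant systems, whereas ME2 works mainly with NAD. In tumor cells these steps are known for linking glutamine carbon to aspartate, NADPH and lipid synthesis.

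Transcripts were counted from their 3' ends, so a count does not grow with transcript length. Levels are given as CPM, counts relative to the TMM-scaled library size. Libraries held 6701004 to 14259943 gene counts. The first principal component of the 11886 tested genes (56.2% of the variance) separated the groups. On the second (17.6%), replicate 1 with glucose, the library with the fewest counts, had a score of 43.5 against −27.5 and −21.5 for the others of its group. The libraries without glucose had scores of −18.2, 19.4 and 4.36. All 6 genes listed as markers of the line were detected (KRT7, KRT8, KRT18, AKR1B10, AKR1C1 and ALDH1A1). They summed to 9872 to 11044 CPM with glucose and 8243 to 8604 CPM without. Of these, 3 fell (KRT8, KRT18 and AKR1B10) and 0 rose by edgeR (0 at an unadjusted p under 0.05 and 0 by DESeq2). Over all genes tested, 10.7% fell and 11.6% rose by edgeR. The 6 markers of leukocytes, fibroblasts and endothelium summed to at most 1.13 CPM in any library, with 4 of the 6 at 0 in each group.

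The 250 bases before a listed start of GOT1 and IDH1, which rose, and of GOT2 and IDH2, which did not pass, are shown first. They come from the RefSeq promoter table of GRCh38.p14, all lie on the minus strand and are written 5′ to 3′ along the gene. The windows are chr10:99430625-99430874 for GOT1, chr16:58734317-58734566 for GOT2, chr2:208255072-208255321 for IDH1 and chr15:90100622-90100871 for IDH2. Capitals mark matches to any of 4 motifs searched on both strands: TGATGNAA (the core of the C/EBP-ATF response element, which binds ATF4), TGACNNNGC (the core of the antioxidant response element, which binds NRF2), TCACNCCAC (a sterol regulatory element core) and TGACGTGG (an unfolded protein response element core).
GOT1: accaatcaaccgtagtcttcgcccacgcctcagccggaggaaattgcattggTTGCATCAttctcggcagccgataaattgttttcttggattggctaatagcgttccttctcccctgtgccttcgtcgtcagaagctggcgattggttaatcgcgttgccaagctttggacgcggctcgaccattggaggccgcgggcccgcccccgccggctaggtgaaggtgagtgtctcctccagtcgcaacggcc
GOT2: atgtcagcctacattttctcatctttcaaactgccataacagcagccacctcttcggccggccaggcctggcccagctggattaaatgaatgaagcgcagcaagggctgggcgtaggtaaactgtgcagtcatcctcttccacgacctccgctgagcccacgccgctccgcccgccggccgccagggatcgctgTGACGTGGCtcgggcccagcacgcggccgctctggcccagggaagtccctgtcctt
IDH1: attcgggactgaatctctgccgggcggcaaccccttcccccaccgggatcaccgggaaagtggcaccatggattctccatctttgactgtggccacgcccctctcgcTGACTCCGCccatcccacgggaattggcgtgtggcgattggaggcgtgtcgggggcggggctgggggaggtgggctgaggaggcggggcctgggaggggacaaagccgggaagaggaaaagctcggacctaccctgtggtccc
IDH2: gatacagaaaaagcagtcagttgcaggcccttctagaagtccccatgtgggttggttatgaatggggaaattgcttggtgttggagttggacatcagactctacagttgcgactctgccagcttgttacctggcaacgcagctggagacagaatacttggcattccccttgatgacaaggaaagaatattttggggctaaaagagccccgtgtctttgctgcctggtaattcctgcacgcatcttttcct

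The GOT1 window held 1 match to TGATGNAA, on the opposite strand, 198 to 191 bases before the start. This motif occurred in 3.14% of all 35116 windows of the same length, and among the 13 windows of the 9 enzymes (some have several starts) in that of GOT1 alone. The IDH1 window held TGACTCCGC, a match to TGACNNNGC, 143 to 135 bases before the start, and a second, more downstream IDH1 start had no match to any of the motifs. ME1 also held a match to TGACNNNGC, 137 to 129 bases before its start. In GOT2 the capitals cover 2 overlapping matches, to TGACNNNGC and TGACGTGG. TGACNNNGC was found in 10.9% and TGACGTGG in 0.612% of all windows. TCACNCCAC, present in 0.883% of all windows, had no match in those of the enzymes. The window before the 1 listed IDH2 start held no match to any motif. Which starts these cells use was not examined, so a window need not be the main promoter of its gene. A match describes the letters only; no binding was measured.

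Without glucose, transcripts of the cytosolic enzymes GOT1 and IDH1 and of the mitochondrial malic enzyme ME2 rose, and 0 of the 9 fell. GOT1 rose 2.98-fold and IDH1 2.57-fold, while their mitochondrial partners GOT2 and IDH2 had folds of 0.777 and 0.745 and did not pass. MDH1 and ME1, the other cytosolic enzymes, had folds of 1.05 and 1.06. The test was edgeR's quasi-likelihood test with Benjamini-Hochberg adjustment over all 11886 genes, passed at an adjusted p under 0.05. By it 11.6% of all genes tested rose and 10.7% fell, against 3 and 0 of the 9 enzymes. At an unadjusted p under 0.05, 4 enzymes were higher and 0 lower, beside 2307 and 2027 of the 11886 genes tested. DESeq2 called 3 enzymes higher and 0 lower, beside 1541 and 1581 of all genes tested. CPM values of the groups did not overlap for 6 of the 9, against 40.4% of all genes. The median log2 fold change was 0.72 over the 4 cytosolic and −0.25 over the 5 mitochondrial enzymes, beside 0.02 over all genes tested. Neither group of enzymes moved as a whole. MDH1 and ME1 were at 0.07 and 0.08, IDH1 and GOT1 at 1.36 and 1.58. Of the mitochondrial enzymes, IDH2, GOT2 and MDH2 were at −0.42, −0.36 and −0.25, and ME3 and ME2 at 0.51 and 0.62.

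**Figure D1:**
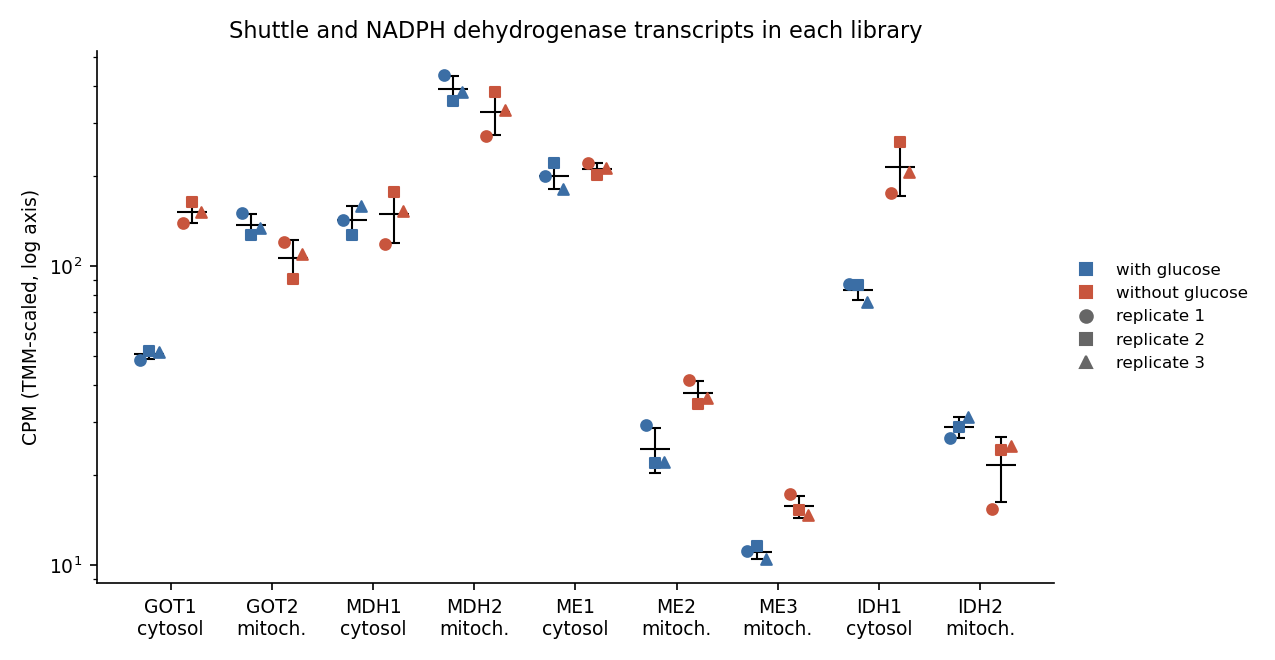
Level of each enzyme transcript in each library, in CPM on a log axis, with glucose in blue and without glucose in red; marker shapes give the replicate number, and the black line and bar are the mean and SD of 3 libraries. GOT1 and IDH1 are higher in all 3 libraries without glucose than in any library with glucose, while the points of MDH1, MDH2 and ME1 overlap.

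Of the aminotransferases, GOT1 rose and GOT2 did not pass. GOT1 stood at 48.6, 52.0 and 51.6 CPM in replicates 1, 2 and 3 with glucose and at 140, 163 and 151 CPM without. Each library without glucose lay far above each library with glucose, and the spread within either group was small beside that gap. The means were 50.7 ± 1.85 and 151 ± 11.7 CPM (SD, n = 3 per group). The log2 fold change of GOT1 was 1.58 ± 0.19 (SE; adjusted p = 2.16e-04 by edgeR), and it stayed between 1.50 and 1.63 when any 1 library was left out. GOT2, which runs the same reaction in mitochondria, stood at 151, 127 and 134 CPM with glucose and at 120, 90.5 and 109 CPM without. Its lowest library with glucose was only a little above its highest without. GOT2 had a log2 fold change of −0.36 (95% interval −0.79 to 0.07) and did not pass (adjusted p = 0.208 by edgeR).

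Within each library, GOT1 reads were also set against GOT2 reads, a ratio that does not depend on library scaling. GOT1 made up 24.4%, 29.0% and 27.8% of the GOT reads with glucose, with 95% Wilson intervals of 22.2% to 26.7%, 27.0% to 31.1% and 26.1% to 29.6%. Without glucose its share was 53.7%, 64.3% and 58.0%, with intervals of 51.9% to 55.6%, 62.7% to 65.9% and 56.4% to 59.7%. These intervals cover counting error only, since no molecular identifiers are mentioned and PCR copies count as reads. Reads that align equally well to a pseudogene were not counted, and GOT2 has 7 pseudogenes by name, so these shares are uncertain. Among the counted reads of the pair, GOT1 passed from the smaller to the larger part in each of the 3 libraries without glucose. The log2 ratio of GOT1 to GOT2 went from −1.43 ± 0.18 to 0.51 ± 0.32 (SD, n = 3 per group), a difference of 1.94 ± 0.21 (SE) or a 3.85-fold higher ratio. By an exact two-sided permutation test p was 0.1, the smallest that 3 against 3 libraries can give, and the adjusted p over the 5 isoform ratios computed was also 0.1. The groups did not overlap, which by itself is common: the same held for the ratios of 40.1% of all pairs of tested genes. The summed level of both genes was 188 ± 10.1 CPM with glucose and 258 ± 3.97 CPM without (SD, n = 3).

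**Figure D2:**
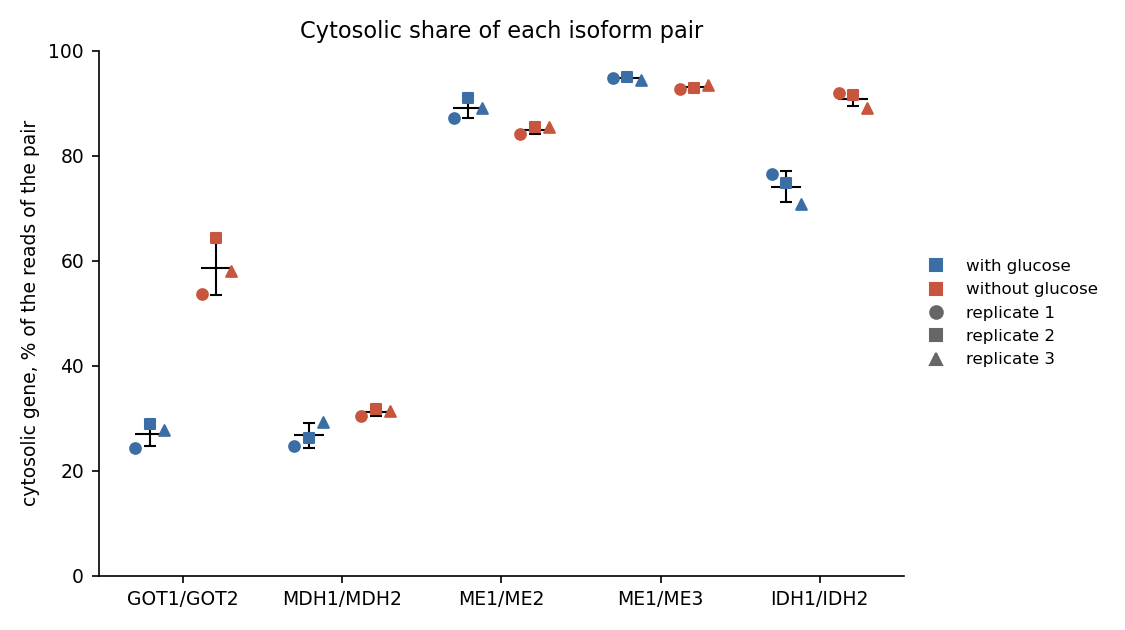
Share of the reads of each isoform pair that came from the cytosolic gene, in percent, for each library with glucose (blue) and without glucose (red); marker shapes give the replicate number, and the black line and bar are the mean and SD of 3 libraries. The share of GOT1 moves from 27.1% to 58.7% and that of IDH1 from 74.1% to 90.9% on average, while the share of ME1 is lower without glucose in both malic enzyme pairs.

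Of the NADP-linked isocitrate dehydrogenases, IDH1 rose and IDH2 did not pass. IDH1 stood at 86.9, 86.3 and 75.9 CPM with glucose and at 175, 260 and 206 CPM without, for replicates 1, 2 and 3. The libraries without glucose differed more among themselves than those with glucose, yet the lowest was about double the highest with glucose. Means were 83.0 ± 6.17 and 214 ± 42.7 CPM (SD, n = 3), and the log2 fold change of IDH1 was 1.36 ± 0.21 (SE; adjusted p = 9.02e-04 by edgeR). It ran from 1.19 to 1.49 on leaving out 1 library. IDH2, the mitochondrial NADP-linked form, stood at 26.6, 28.9 and 31.3 CPM with glucose and at 15.5, 24.2 and 25.0 CPM without. Replicate 1 without glucose was the lowest, and the groups came close without overlapping. IDH2 had a log2 fold change of −0.42 (95% interval −0.91 to 0.06; adjusted p = 0.195 by edgeR), and it was −0.24 with that library left out.

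IDH1 made up 76.6%, 74.9% and 70.8% of the reads of the pair with glucose and 91.9%, 91.5% and 89.2% without. The 95% Wilson intervals of the libraries with glucose spanned 68.5% to 79.4%, and those of the glucose-free libraries 88.0% to 93.0%. The difference in the log2 ratio of IDH1 to IDH2 was 1.80 ± 0.19 (SE), from 1.52 ± 0.22 to 3.32 ± 0.25 (SD, n = 3 per group), with p = 0.1 by the exact permutation test. The summed level of the pair was 112 ± 4.19 CPM with glucose and 235 ± 46.7 CPM without.

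The NAD-linked isocitrate dehydrogenase of the tricarboxylic acid cycle is a mitochondrial enzyme built from IDH3A, IDH3B and IDH3G subunits. Of its 3 genes 1 fell and 0 rose by edgeR (0 at an unadjusted p under 0.05 and 0 by DESeq2). Over all genes tested, 10.7% fell and 11.6% rose. IDH3A, of the catalytic subunit, had a log2 fold change of −0.83 ± 0.27 (adjusted p = 0.0421 by edgeR). Its level was 44.2, 70.9 and 99.3 CPM in the libraries with glucose, and 37.1, 42.3 and 41.8 CPM without. The spread of IDH3A lay in the group with glucose, and the call was lost on leaving out any library other than replicate 1 with glucose (adjusted p from 0.0765 to 0.200). IDH3B and IDH3G had log2 fold changes of −0.34 and 0.22 and did not pass.

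Neither malate dehydrogenase passed. MDH1 stood at 142, 127 and 159 CPM with glucose and at 118, 177 and 152 CPM without, and the groups overlapped. The log2 fold change of MDH1 was 0.07 with a 95% interval of −0.39 to 0.53 (adjusted p = 0.844 by edgeR), so changes within that interval cannot be told from none at this replication. MDH2 stood at 435, 356 and 382 CPM with glucose and at 272, 382 and 332 CPM without. It had a log2 fold change of −0.25 (95% interval −0.69 to 0.19; adjusted p = 0.399 by edgeR). MDH1 made up 24.6%, 26.2% and 29.4% of the pair's reads with glucose and 30.3%, 31.7% and 31.4% without. The 95% Wilson intervals of these shares spanned 23.3% to 30.4% with glucose and 28.9% to 32.8% without, and so overlapped. The difference in the log2 ratio was 0.31 ± 0.11 (SE; p = 0.1 by the exact permutation test), with group means of −1.46 ± 0.18 and −1.14 ± 0.05 (SD, n = 3). Replicate 3 with glucose lay closest to the other group, and without replicate 1 with glucose the difference was 0.24. Reads shared between MDH1 and WDPCP, a gene that overlaps it in the RefSeq table, cannot be assigned without knowing the strand setting of the counting; WDPCP had 22 to 122 counts per library.

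Of the malic enzymes, the mitochondrial ME2 rose, while ME3 and the cytosolic ME1 did not pass. ME1 stood at 200, 221 and 180 CPM with glucose and at 220, 202 and 213 CPM without, with overlapping groups. Its log2 fold change was 0.08 (95% interval −0.33 to 0.49; adjusted p = 0.796 by edgeR). ME2 went from 29.4, 22.0 and 22.2 CPM to 41.6, 34.5 and 36.3 CPM for replicates 1, 2 and 3. In both groups replicate 1 was the highest, and the groups did not overlap. ME2 rose by 0.62 ± 0.20 on the log2 scale with an adjusted p of 0.0471 by edgeR, close to the threshold. The call was lost on leaving out any library other than replicate 1 with glucose (adjusted p up to 0.155) and with either other library scaling (0.0821 with library totals and 0.0527 with RLE factors) or no filter on low counts (0.0517), so that 2 enzymes rose there. ME3, the mitochondrial NADP-linked form, went from 11.2, 11.6 and 10.5 CPM to 17.3, 15.2 and 14.7 CPM, again with no overlap. Its log2 fold change was 0.51 (95% interval 0.04 to 0.97) and it did not pass after adjustment (adjusted p = 0.109 by edgeR).

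ME1 made up 87.2%, 90.9% and 89.1% of the reads of ME1 and ME2 together with glucose and 84.1%, 85.4% and 85.4% without. The log2 ratio of ME1 to ME2 went from 3.04 ± 0.28 to 2.50 ± 0.08 (SD, n = 3), a difference of −0.54 ± 0.17 (SE). Against ME3 the log2 ratio went from 4.17 ± 0.07 to 3.75 ± 0.09, a difference of −0.42 ± 0.07 (SE). Both had p = 0.1 by the exact permutation test, and the 2 differences share the ME1 counts. For both malic enzyme pairs the 95% Wilson intervals of the shares overlapped between groups: for ME1 and ME2 they spanned 85.5% to 92.0% with glucose and 82.7% to 86.6% without, and for ME1 and ME3 93.5% to 95.8% and 91.7% to 94.3%. Wilson intervals, which cover counting error only, were separate between groups for the aminotransferases and isocitrate dehydrogenases, and not for the other 3 ratios. The ratios themselves did not overlap between groups for any pair, as held for 40.1% of all pairs of tested genes. Whether the ratios differ from each other was not tested.

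**Figure D3:**
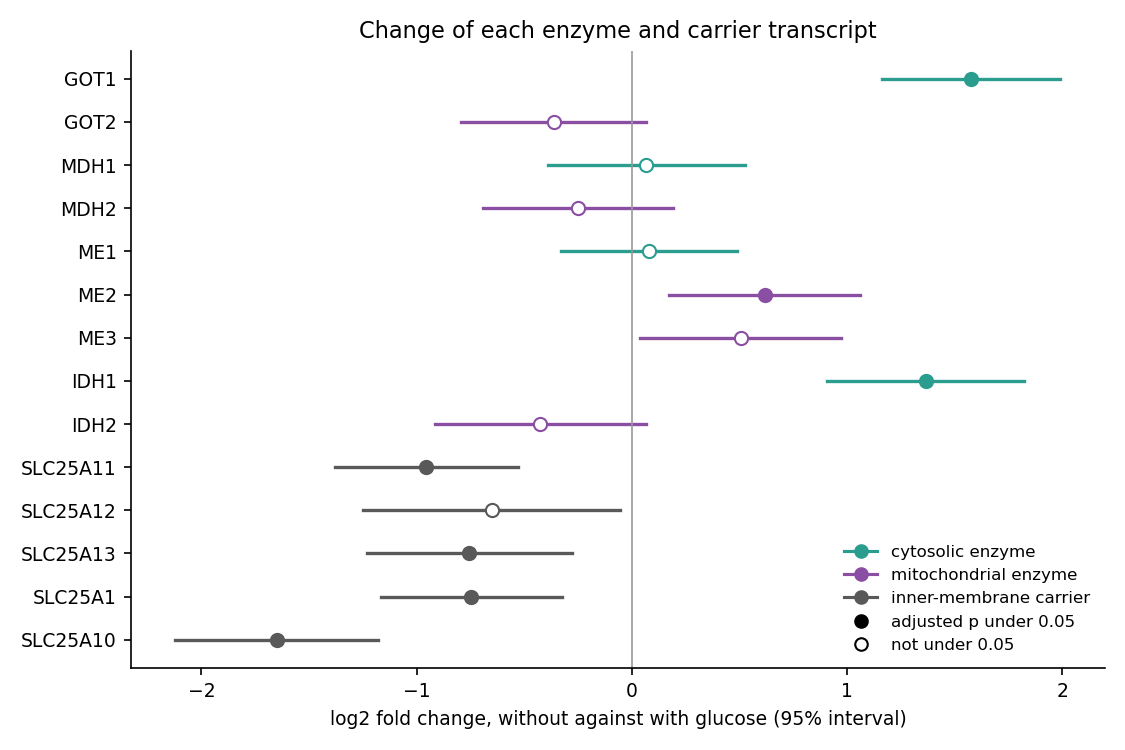
Log2 fold change (without against with glucose) of each enzyme and of the carriers, with its 95% interval; colors mark cytosolic enzymes, mitochondrial enzymes and inner-membrane carriers, and filled points have an adjusted p under 0.05. GOT1 (1.58) and IDH1 (1.36) lie apart on the right, and all 5 carriers lie below 0, from −0.65 to −1.65.

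Transcripts of the carriers that connect the compartments fell in 4 of 5 cases, against 10.7% of all genes tested. SLC25A11, which exchanges malate for 2-oxoglutarate in the shuttle, stood at 82.7, 81.7 and 83.7 CPM with glucose and at 42.2, 37.1 and 48.6 CPM without. Its groups lay far apart, and it fell by 0.95 ± 0.20 on the log2 scale (adjusted p = 0.00465 by edgeR). SLC25A13, the aspartate-glutamate carrier also called citrin, went from 115, 136 and 90.8 CPM to 69.8, 56.3 and 76.8 CPM. It fell by 0.75 ± 0.22 (adjusted p = 0.0282 by edgeR), a call lost without replicate 2 with glucose (0.119) or glucose-free replicates 1 or 2 (0.0605 and 0.0854), where 1 of the shuttle carriers fell. SLC25A12, the related carrier aralar, was low, at 7.20 to 9.04 CPM with glucose and 4.57 to 6.58 CPM without, and had a log2 fold change of −0.65 ± 0.27 (adjusted p = 0.106 by edgeR). Of the 3 shuttle carriers 2 fell and 0 rose (0 at an unadjusted p under 0.05 and 0 by DESeq2), with a median of −0.75.

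Both other carriers of malate or citrate fell (2 of 2), against 10.7% of all genes tested. By edgeR 0 rose (0 at an unadjusted p under 0.05 and 0 by DESeq2), against 11.6% of all genes. SLC25A10, the dicarboxylate carrier that exchanges malate for phosphate, went from 34.3, 24.6 and 29.8 CPM to 9.39, 8.80 and 10.02 CPM for replicates 1, 2 and 3. All libraries without glucose were at less than 0.5 of any library with glucose, and it fell by 1.65 ± 0.22 on the log2 scale (adjusted p = 3.51e-04 by edgeR). SLC25A1, the citrate carrier, fell by 0.75 ± 0.19 (adjusted p = 0.0159 by edgeR), from 67.6 ± 8.46 to 40.3 ± 1.16 CPM (SD, n = 3).

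Paralogs of the shuttle enzymes were scarce. No read of GOT1L1, a paralog of GOT1, was counted in any library (0 counts, under a floor of 3). MDH1B, a paralog of MDH1, had 6 to 21 counts per library and a log2 fold change of −0.30 (95% interval −1.56 to 0.97).

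The glycerol 3-phosphate shuttle is the other route for cytosolic NADH. GPD1, its cytosolic dehydrogenase, was below the filter. GPD1L, a close relative of GPD1, rose from 8.57 ± 1.47 to 21.0 ± 0.340 CPM (SD, n = 3), a log2 fold change of 1.28 ± 0.22 (adjusted p = 0.00185 by edgeR). GPD2, the mitochondrial partner, stood at 55.5, 14.2 and 20.6 CPM without glucose against 19.0 to 21.1 CPM with glucose. Replicate 1 without glucose alone stood high, and GPD2 did not pass (adjusted p = 0.305 by edgeR). Of the 2 tested genes 1 rose and 0 fell (0 at an unadjusted p under 0.05 and 0 by DESeq2). The shares over all genes tested were 11.6% and 10.7%.

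Among other enzymes listed as making NADPH, the calls went both ways. Of the 8 that could be tested, 3 rose and 2 fell, with a median log2 fold change of −0.13. Those that rose include MTHFD2, a mitochondrial folate enzyme that works mainly with NAD. It rose by 0.66 ± 0.21 on the log2 scale (adjusted p = 0.0381 by edgeR). Of all genes tested, 11.6% rose and 10.7% fell. The list as drawn up also held the NAD kinases NADK and NADK2, which make NADP from NAD and do not reduce it, so that 4 of 10 listed genes rose. NADK2 rose by 0.94 ± 0.27 on the log2 scale (adjusted p = 0.0240 by edgeR), a call lost without replicate 3 with glucose (0.0971) and without glucose-free replicate 2 (0.0924), while NADK, at −0.55, missed the threshold. ALDH1L2, the mitochondrial formyltetrahydrofolate dehydrogenase, rose by 2.35 ± 0.36 on the log2 scale, although its libraries without glucose spread widely, at 105, 47.2 and 34.8 CPM. H6PD, which makes NADPH in the endoplasmic reticulum, rose by 0.97 ± 0.22 (adjusted p = 0.00740 by edgeR). PGD, of the pentose phosphate pathway in the cytosol, fell by 0.77 ± 0.20 (adjusted p = 0.0161 by edgeR), a call lost without replicate 2 with glucose (0.0817) and without glucose-free replicate 3 (0.0766). Of the 10 listed genes 2 rose without glucose-free replicate 2. The number that fell was 0 without replicate 2 with glucose or glucose-free replicate 3, and 1 without replicate 3 with glucose or glucose-free replicate 1.

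Enzymes that use NADPH fell in 4 of 16 cases and rose in 1, with a median of −0.15, beside 10.7% and 11.6% of all genes tested. PYCR1, which makes proline, rose by 1.01 ± 0.20 on the log2 scale. Without replicate 3 with glucose 2 of these enzymes fell, and DESeq2 called 6 lower.

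The remaining enzymes of the tricarboxylic acid cycle mostly did not pass: of 14, 2 rose, 2 fell and 10 did not pass (median −0.36). These counts lie near the shares of all genes tested, of which 11.6% rose and 10.7% fell. SDHA, the flavoprotein of succinate dehydrogenase, fell by 1.05 ± 0.19 on the log2 scale. SUCLG2, a subunit of the GDP-forming succinyl-CoA ligase, rose by 0.94 ± 0.20. FH, the fumarase, which makes the malate that MDH2 oxidizes, had a log2 fold change of −0.63 ± 0.19 (adjusted p = 0.0319 by edgeR), and its call was lost with any library left out (adjusted p from 0.0523 to 0.0943). On leaving out any library other than glucose-free replicate 1, or with library totals as scaling, 1 rose, and 1 fell without replicates 2 or 3, glucose-free or not.

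Enzymes that make or use aspartate, glutamate and oxaloacetate rose in 3 of 15 cases and fell in 0 (2 at an unadjusted p under 0.05 and 1 by DESeq2), with a median of 0.06. Among all genes tested, 11.6% rose and 10.7% fell. PCK2, the mitochondrial enzyme that makes phosphoenolpyruvate from oxaloacetate, rose by 1.82 ± 0.21 on the log2 scale. ASS1 and ASNS, which join aspartate to citrulline and amidate aspartate to asparagine, rose by 1.42 ± 0.30 and 1.20 ± 0.19. These 3 and GOT1 all act on aspartate or oxaloacetate; the list was drawn up with earlier results of these data known.

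**Figure D4:**
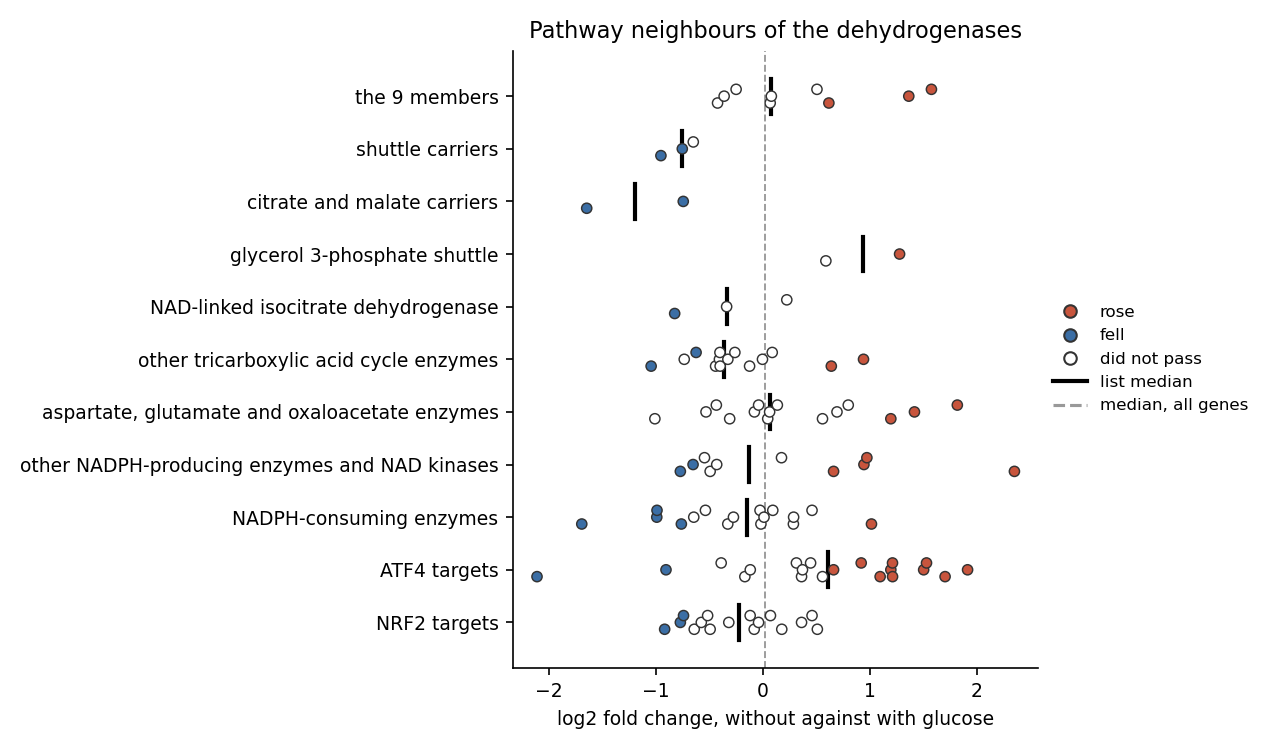
Log2 fold change (without against with glucose) of each tested gene of the enzymes and of the pathway lists; red points rose, blue points fell, open points did not pass, short black bars are list medians and the dashed line is the median of all genes tested. The carriers lie to the left of that line, and the ATF4 targets have their median at 0.61.

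Known targets of 2 transcription factors linked to these enzymes were counted beside them. Of 20 targets of ATF4, the factor of the amino acid stress response, 10 rose and 2 fell (median 0.61). For all genes tested the shares were 11.6% and 10.7%. Both target lists were drawn up with earlier results of these data known. CEBPG, DDIT3 and NUPR1, all stress-response regulators, rose by 1.91 ± 0.22, 1.70 ± 0.22 and 1.53 ± 0.21 on the log2 scale. Named after their values were seen, 2 other targets fell: CHAC1, a glutathione-degrading enzyme, by 2.11 ± 0.45 (adjusted p = 0.00597 by edgeR) and ATF5, a transcription factor, by 0.91 ± 0.22 (adjusted p = 0.0126, and 0.0561 without glucose-free replicate 3). Of 16 targets of NRF2, the factor of the antioxidant response, 0 rose and 3 fell by edgeR (1 and 7 at an unadjusted p under 0.05, 1 and 5 by DESeq2; median −0.22). AKR1B10, an aldo-keto reductase, fell by 0.92 ± 0.18. PGD and TKT, of the pentose phosphate pathway, fell by 0.77 ± 0.20 and 0.74 ± 0.19, the latter not without replicate 3 of either group (adjusted p = 0.0837 with glucose and 0.0676 without). The number of NRF2 targets that fell was 5 without replicate 2 and 1 without glucose-free replicate 3. The part of either factor in the levels of GOT1, IDH1 or ME1 was not tested.

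Finally, the genes with the profile most like each enzyme that rose were found by the distance between log2 CPM profiles, centered per gene, over the 6 libraries, among 11134 genes averaging 20 or more counts per library. For GOT1 they were ERP44, a chaperone-like protein of the secretory pathway, SGTB, a co-chaperone, and TRAF1, a signaling adaptor, at distances of 0.16, 0.18 and 0.24 against a median of 2.05 over all candidates. ERP44 went from 67.7 to 198 CPM on average. For IDH1 they were UBL3, the receptor tyrosine kinase gene AXL and the sulfotransferase gene SULT1A1, at 0.23, 0.24 and 0.24 (median 1.86). For ME2 they were ARHGEF19, AUH, a mitochondrial enzyme of leucine breakdown, and ZNF182, at 0.12, 0.14 and 0.18 (median 1.19). With 6 libraries in 2 groups these distances mainly reflect the size of the group difference and are given as a description. ARHGEF19 and AUH did not pass the test (adjusted p = 0.226 and 0.123 by edgeR). TRAF1 and SULT1A1 were low, at 2.87 and 3.05 CPM on average without glucose. The calls of TRAF1, SULT1A1 and ZNF182 were lost under 6, 8 and 7 of 12 alternatives.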

How the data were processed

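Levels of 3'-end transcripts were measured in 6 A549 libraries, 3 per group. The authors deposited raw read counts per Entrez gene; STAR, HTSeq and hg19 are named in the submitters' processing notes, and versions, annotation and strand setting were not given in the sources used here. Per the labels' protocols, barcoded oligo-dT primed the cDNA, samples were pooled by an Actb signal and 12 PCR cycles followed. Reads outside any gene (32.8% to 36.5% of a library), with several alignments (18.4% to 22.2%) or ambiguous (0.369% to 0.418%) stood in 5 summary lines and were left out. Reads that align equally well to a pseudogene are among those, so levels and isoform shares are uncertain for GOT2 (7 pseudogenes by name), MDH1 (2), ME2 (1) and IDH1 (1). Symbols came from a RefSeq table (GRCh38.p14, 19178 of 19240 genes); because the builds differ, coordinates are given for the promoter windows only.

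Groups were compared with edgeR 4.0.16 (TMM, filterByExpr at a minimum count of 10, quasi-likelihood F test, two-sided, Benjamini-Hochberg over 11886 genes, adjusted p under 0.05), a step tested on simulated data. SE was worked back as log2 fold change over the root of F and is approximate; 95% intervals use it with the test's degrees of freedom. Isoform ratios used log2 counts plus 0.5 and an exact permutation test over libraries (5 ratios). The libraries of a group differed by more than sampling noise (chi-square per degree of freedom 22.1 to 57.3). Same-numbered libraries did not deviate together (correlations −0.23, −0.10 and 0.03), so no replicate block was used. DESeq2 1.42.0, other scalings and filters, a block and leaving out each library were tried. The enzymes, the 13 lists (122 entries, 9 genes in more than 1 list), motifs and tests were chosen with earlier results of these data known. Named are the 9 enzymes, their paralogs and carriers, in each other list the 3 genes of smallest p, and the 3 nearest profiles of each enzyme that passed. GPD1, WDPCP, CHAC1, ATF5, MTHFD2, NADK and NADK2 were added after values were seen. Some genes this rule names are not reported here.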

Additional observations from a re-analysis of the deposited data

How the results depend on the processing

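No called result changed direction under the alternatives. Of 9 enzymes 2 or 3 rose and 0 fell under all 12 alternatives of the edgeR comparison; GOT1 and IDH1 passed in each, with log2 fold changes of 1.50 to 1.63 and 1.19 to 1.49, and the ME2 call was the one lost. Over all genes, 1376 were higher and 1276 lower; leaving out 1 library gave 860 to 1292 higher and 781 to 1232 lower. Differences in the isoform ratios kept their sign under 8 alternatives each. With 1 library left out this was bound to hold, because no ratio overlapped between groups, so only the sizes inform. The differences then ran from 1.77 to 2.09 for GOT1 to GOT2 and from 1.68 to 1.94 for IDH1 to IDH2. They ran from 0.24 to 0.41 for MDH1 to MDH2, −0.67 to −0.39 for ME1 to ME2 and −0.47 to −0.38 for ME1 to ME3. With a replicate block, whose numbers the labels do not explain, 2 enzymes rose (ME2 adjusted p = 0.0860 by edgeR), 984 genes were higher and 911 lower; paired differences of the isoform ratios have the same mean by arithmetic and test nothing. Of 575 values of the 48 named genes tested, 516 kept direction and call and 54, in 10 genes, kept direction but missed the threshold. The other 5, in 4 genes that passed in neither case, changed sign on leaving out 1 library, which gave −0.089 to 0.21 for MDH1, −0.81 to 0.035 for MDH1B, −0.20 to 0.91 for GPD2 and −0.080 to 0.37 for IDH3G. Counts of the pathway lists under the alternatives were added after seeing the data. At 3 libraries per group, a difference of the size seen for GOT2, MDH2 or IDH2 could not be told from none.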
